A study of Mus musculus with 2 samples.

Results

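The globin genes and the alpha-globin chaperone were taken as 8 genes, found by name among the non-control spots of both arrays: the adult alpha globins Hba-a1 and Hba-a2, the adult beta globins Hbb-b1 and Hbb-b2, the embryonic globins Hba-x, Hbb-bh1 and Hbb-y, and Ahsp. They were represented by 9 probes, 2 of them for Hbb-y, out of 39429 probes and 31709 genes on the array. Cyanine 3 cRNA made from total RNA was read on Agilent arrays that cover the mouse genome, with 1 array for BaF/3 (#BEB1) cells and 1 array for parental Ba/F3 cells. Ba/F3 is an established mouse pro-B cell line that depends on interleukin-3, and both lines were kept in that cytokine. BaF/3 (#BEB1) is a single clone from Ba/F3 cells that had been infected with a retroviral cDNA library of CG4 cells, a rat oligodendrocyte precursor line, and it was obtained by repeated sorting for binding of the Ecrg4–Fc fusion protein. The labels give no further treatment, time or dose. With 1 array per line, no difference has a replicate check, no p-value can be given, and what is particular to 1 clone cannot be told apart from what is shared by Ecrg4-binding cells.

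The direction of every comparison is not settled, because the scanner output and the authors' table of normalised values give the arrays to opposite cell lines. Across 39429 probes, the table's BaF/3 (#BEB1) column correlated at r = 0.999996 with the scanner output deposited for the parental cells and at 0.982286 with the other, and the probes are not independent replicates. That array is called array A: it is BaF/3 (#BEB1) by the table and parental Ba/F3 by the scanner output. The other is called array B, and it is parental Ba/F3 by the table and BaF/3 (#BEB1) by the scanner output. Each difference is the log2 value of array A less that of array B. By the table this is the clone less its parent, and by the scanner output it is the parent less the clone. Every sign changes if the assignment is turned round. Olr1, which encodes LOX-1 and was cloned in the study from BaF/3 (#BEB1) cells, was 32.1-fold brighter on array A.

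Haemoglobin is a tetramer of alpha-like and beta-like chains, each of which holds a heme group. In mice the alpha-like genes lie together on chromosome 11 and the beta-like genes on chromosome 7, and each cluster holds genes used in embryonic red cells of the yolk sac and genes used in the definitive red cells of foetal liver and adult marrow. Erythroid cells normally keep the output of both clusters in balance, since free alpha chains precipitate, and AHSP binds free alpha globin until it meets a beta chain. The transcription factors GATA1 and KLF1 act on distal enhancers and on promoter elements of the clusters.

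The probe sequences are shown because near-identical globin genes can share a probe, so that a spot may read more than the gene it is named for. Each is a 60-base oligonucleotide and is given 5′ to 3′ as in the scanner output, whole or as its last 30 bases, with the polyadenylation signal AATAAA in capitals where it occurs.
Hba-a1: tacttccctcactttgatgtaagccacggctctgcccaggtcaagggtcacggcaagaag
Hba-a2, last 30 bases: gtctttgAATAAAgcctgagtaggaagaag
Hbb-b1, last 30 bases: tatgtcccctagagaaaaactgtcaattgt
Hbb-b2: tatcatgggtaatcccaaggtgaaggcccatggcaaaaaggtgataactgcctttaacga
Hba-x: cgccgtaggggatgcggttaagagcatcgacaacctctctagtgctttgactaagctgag
Hbb-bh1, last 30 bases: atgtgtctatgatgccctctttgagtccat
Ahsp: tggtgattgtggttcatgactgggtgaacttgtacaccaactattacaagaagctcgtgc
The longest run of bases shared by any of the 36 pairs of these 9 probes was 10 bases, and 0 other probes on the array had a member's sequence. This cannot show whether a probe also matches the transcript of another globin gene, because the probes were not compared with transcripts. For both adult alpha globins, however, the scanner output lists the transcripts of Hba-a1 (NM_008218) and Hba-a2 (NM_001083955) under each probe. The Hba-a1 and Hba-a2 spots therefore give a pair of readings of the adult alpha genes, and which of the genes gave the signal cannot be told apart.

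By the coordinates in the scanner output, which are in the mouse build mm9, the alpha-like probes lie on the plus strand of chromosome 11: Hba-x at chr11:32177668-32177727, Hba-a1 at chr11:32183955-32184014 and Hba-a2 at chr11:32197245-32197304. The Hba-a1 and Hba-a2 probes are 13.3 kb apart and the Hba-x and Hba-a1 probes 6.29 kb. The beta-like probes lie on the minus strand of chromosome 7: Hbb-b1 at chr7:110961105-110961164, Hbb-b2 at chr7:110962047-110962106, Hbb-bh1 at chr7:110990209-110990268 and Hbb-y at chr7:111000268-111000327 and chr7:111000448-111000507. The Hbb-b1 and Hbb-b2 probes are 0.942 kb apart, and whether they lie in the same gene or in different genes was not looked up. The Ahsp probe, for NM_133245, has no position in the scanner output, and the exons and untranslated regions under the probes were not looked up, as no annotation of this build was used.

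Promoter sequences are shown for the members that differed or that represent the embryonic stage, as the 120 bases before the start of the gene on its own strand, from RefSeq in the build GRCm38.p6. Of the 8 members, 5 had an entry, that of the Hbb-b1 probe's transcript NM_008220 under the name Hbb-bt. Capitals mark CACCC, the element bound by KLF1, CCAAT, GATA and TATAA on either strand, where a CCAAT on the opposite strand reads ATTGG.
Hba-a1, chr11:32283552-32283671 (+): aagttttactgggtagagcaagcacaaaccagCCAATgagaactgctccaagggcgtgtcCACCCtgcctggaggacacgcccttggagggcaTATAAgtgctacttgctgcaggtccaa
Hba-a2, chr11:32296372-32296491 (+): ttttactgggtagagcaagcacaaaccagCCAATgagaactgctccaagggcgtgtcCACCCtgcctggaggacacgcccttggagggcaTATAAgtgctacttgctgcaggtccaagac
Hbb-bt, chr7:103813924-103814043 (-): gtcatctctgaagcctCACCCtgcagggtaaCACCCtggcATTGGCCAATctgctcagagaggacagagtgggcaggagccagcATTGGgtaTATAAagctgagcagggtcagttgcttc
Hba-x, chr11:32276480-32276599 (+): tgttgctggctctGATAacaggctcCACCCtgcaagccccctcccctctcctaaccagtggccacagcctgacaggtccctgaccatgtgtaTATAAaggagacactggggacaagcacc
Over their whole 300-base entries, which run past the start of the gene, Hba-a1 and Hba-a2 shared an unbroken run of 297 bases. In the window of 120 bases, each held 1 CACCC, 1 CCAAT and 1 TATAA, and Hbb-bt held 2 CACCC, 3 CCAAT and 1 TATAA. Hba-x held 1 CACCC, 1 GATA and 1 TATAA, and Hbb-y, not shown, held 1 CACCC and 1 CCAAT. Over the same window, CACCC stood in 31.7%, CCAAT in 21.3%, GATA in 29.5% and TATAA in 11.8% of 32851 promoters. These letters are descriptions and not shown to be sites.

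Values are the processed signal of the scanner software, in arbitrary units, with the error that the software gives for the spot, which covers that spot and not differences between cultures. For comparison each array was divided by the 75th percentile of its spots, 1506 on array A, against 1080 on array B. A probe counted as detected where the software marked it well above background, and as measured where it did so on both arrays. The lowest signal so marked was 27.6 on array A, against 22.9 on array B. Signals of different probes are not set against each other, since probes differ in how brightly they hybridise.

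The adult alpha globins were the only members measured on both arrays, and both were higher on array B. The Hba-a1 probe had a signal of 223 ± 23.1 on array A, against 1464 ± 147 on array B. The Hba-a2 probe had 617 ± 62.1 on array A, against 4820 ± 482 on array B. After scaling, Hba-a1 was 9.17-fold and Hba-a2 10.9-fold higher on array B. The log2 differences were −3.20 (spot error 0.21) and −3.44 (spot error 0.20). As RNA of whole cultures was measured, fewer cells with globin RNA and less of it per cell cannot be told apart. The log2 differences of the Hba-a1 and Hba-a2 probes lay 0.25 apart, with a spot error of 0.29. Among the 14815 genes measured on both arrays, ordered from the furthest towards array B, Hba-a2 stood 25th and Hba-a1 33rd. Of these 14815 genes, 7.3% lay 2-fold or more towards array B, and 3.85% towards array A. The background over all genes was a median difference of −0.02, against a median of −3.32 for the adult alpha globins.

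The adult beta globins did not show the same pattern. The Hbb-b1 probe had a signal of 115 ± 13.0 on array A, against 15.0 ± 5.22 on array B, where it was not well above background. Taken against 22.9, the detection limit of array B, and after scaling, the Hbb-b1 signal was brighter on array A by at least 3.59-fold, the opposite direction from the alpha globins. Of the 785 genes that were well above background on array A only, 37.1% had a bound of at least 2-fold. Hbb-b1 was under 2-fold with the normexp background correction, at 1.61-fold. The Hbb-b2 probe had 5.9 ± 5.87 on array A, against 10.5 ± 5.01 on array B and was well above background on neither, as were 47.9% of all genes. Another probe of this cluster, without a gene symbol, lies 15.27 kb from the Hbb-b1 probe. It had 6.62 ± 5.59 on array A, against 4.72 ± 4.7 on array B, and was also well above background on neither. Since it was not looked up whether the Hbb-b1 and Hbb-b2 probes read different genes, their readings may not stand for separate genes. Only a bound can be given for the beta side, and the difference between the alpha and beta directions was not tested.

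**Figure D1:**
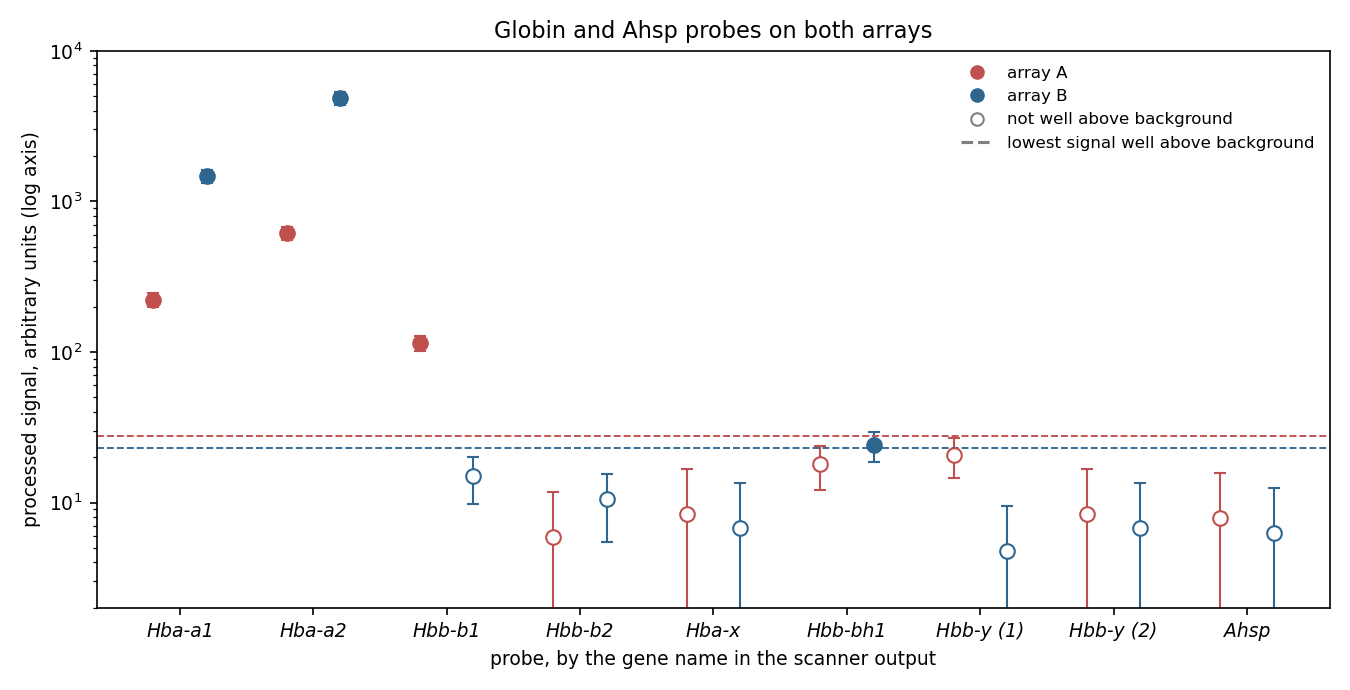
Processed signal of each globin and Ahsp probe on array A (left of each pair) and array B (right), in arbitrary units on a log axis, with the spot error of the scanner software; bars that reach below the axis are cut by its lower end. Dashed lines are the lowest signals well above background, 27.6 on array A, against 22.9 on array B, and open points were not well above background. Both adult alpha probes are higher on array B, Hbb-b1 is above the line on array A only, Hbb-bh1 is just above it on array B only, and the other probes lie under the lines.

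The embryonic globins were at or near background on both arrays. Hba-x, the embryonic alpha-like zeta chain, had 8.42 ± 8.38 on array A, against 6.77 ± 6.75 on array B. Hbb-bh1, an embryonic beta-like chain, had 18.0 ± 5.85 on array A, against 24.0 ± 5.28 on array B, just over the lowest signal well above background there. Its bound was 1.21-fold towards array B, under the 2-fold size, and with scaling to the median or by quantiles it gave no bound in either direction. For comparison, 53.3% of the 905 genes well above background on array B only had a bound of at least 2-fold. Hbb-y, the embryonic epsilon-like chain, was read by 2 probes, giving 20.7 ± 6.06 and 8.42 ± 8.38 on array A, against 4.76 ± 4.74 and 6.78 ± 6.75 on array B, and neither was well above background on either array. So 3 of 4 adult globin probes were past 2-fold, 2 of them towards array B and 1, a bound, towards array A. These probes may not stand for 4 separate genes, since each alpha probe lists both alpha transcripts and the beta probes may share a gene. Of all genes measured on both arrays, 7.3% lay that far towards array B and 3.85% towards array A. These shares can be set beside the alpha probes only. The Hbb-b1 bound reads against the 37.1% given above for bounds towards array A, and Hbb-b2 had no difference to count. The embryonic count was 0 of 3 genes, but Hba-x and Hbb-y were detected on neither array and had no difference to count. With a looser filter on dim probes, Hbb-y gave a bound of 3.13-fold towards array A.

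Ahsp, the chaperone of free alpha globin, had 7.89 ± 7.86 on array A, against 6.24 ± 6.21 on array B. Signal of Ahsp was therefore not detectable on either array, including array B, on which both alpha globin probes were at their higher level. Of 9 other globin family genes fixed for comparison, 6 had a probe of their own, among them myoglobin, neuroglobin and cytoglobin. All 6 were well above background on neither array. Hbb-bt, also among the 9, is the RefSeq name for the transcript of the Hbb-b1 probe, whose signal is given above as Hbb-b1.

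No neighbour of the clusters that was measured on both arrays was 2-fold apart, and most neighbours were not detected. Within 100 kb of a member's probe on chromosome 11 there were 9 other genes or unnamed probes, 5 measured on both arrays and 4 detected on neither. The named genes measured were Nprl3, Mpg and Snrnp25, and the rest of the measured were probes without a gene symbol. Those not detected included Hbq1a and Hbq1b, already counted among the other globin family genes. Nprl3, whose introns hold the known distal enhancers of the alpha globins, differed by 0.68 and 0.64 at its 2 probes, towards array A, which is 1.58-fold for the gene. Mpg, a DNA glycosylase, differed by −0.22 and Snrnp25, a spliceosome protein, by −0.20, and both turned positive with median scaling. On chromosome 7, 16 genes lay within 100 kb, 12 of them olfactory receptors, and 14 were detected on neither array. The exceptions were Olfr243, detected on array A only with a bound of 1.79-fold, and Olfr632, detected on array B only with a bound of 2.67-fold. Hba-a1 and Hba-a2 were the only genes of either neighbourhood that were measured on both arrays and at least 2-fold apart. On chromosome 7, 0 of the 16 neighbours were measured on both arrays, so none could have joined them. On chromosome 11 only 5 were. Of all measured genes, 7.3% lay past 2-fold towards array B and 3.85% towards array A. Whether the difference is limited to the alpha globins in this region was therefore not tested.

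**Figure D2:**
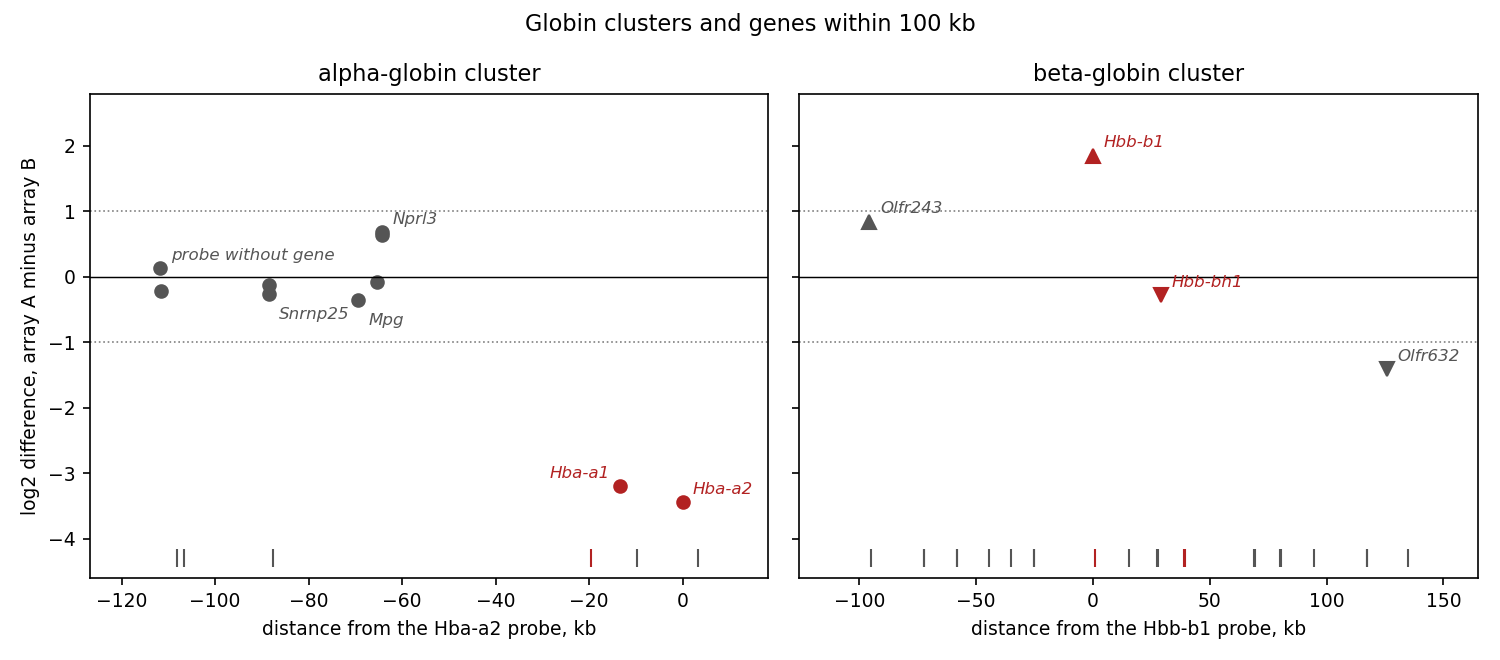
Log2 difference (array A less array B) against distance in kb from the Hba-a2 probe (left, alpha cluster) or the Hbb-b1 probe (right, beta cluster). Red marks members and grey other genes; circles were measured on both arrays, upward triangles are bounds towards array A and downward triangles bounds towards array B, ticks at the bottom were detected on neither array, and dotted lines mark 2-fold. The adult alpha globins sit at −3.20 and −3.44 while Nprl3 sits at 0.68 and 0.64.

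Genes that act with the globins in red cells were set beside them from lists chosen with earlier results of these data known. Of 14 erythroid transcription factors, 13 were measured on both arrays; 4 lay past 2-fold towards array B and 1 towards array A, with a median of −0.50. Klf1, the activator of adult globin genes, differed by −2.31, Zfpm1, a GATA1 cofactor, by −2.07, and Gfi1b, a repressor in erythroid and megakaryocytic cells, by −1.87. Gata1 differed by −1.16, which was −0.86 with median scaling and so under 2-fold. Ikzf1, the lymphoid factor Ikaros, differed by 1.77 towards array A. Tal1 (−0.39), Nfe2 (−0.50) and Lmo2 (0.61) were under 2-fold.

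Of 17 regulators of globin switching, 13 were measured on both arrays, and 2 exceeded 2-fold towards array B, with a median of −0.39. Gata2 differed by −1.40 and Zbtb7a, a repressor of embryonic and foetal globins, by −1.04, but Zbtb7a fell short of 2-fold under normexp, under median or quantile scaling, and at its brightest probe. Bcl11a, Sox6, Lin28b and Igf2bp1 were detected on neither array. Of 17 genes of heme synthesis and iron uptake, 16 were measured, and 2 exceeded 2-fold towards array B, with a median of −0.44. The mitochondrial transporter Abcb10 differed by −1.05, and with median scaling 0 of the list reached 2-fold towards array B. Alas2, the erythroid form of the first enzyme of heme synthesis, was detected on neither array.

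Among 19 genes of the red cell membrane and skeleton, 11 were measured on both arrays and only Icam4, an adhesion molecule of red cell precursors, was past 2-fold, at −1.37. Band 3 (Slc4a1), beta spectrin (Sptb), Kel, Aqp1 and Tmod1 were detected on neither array. Among the 18 other red cell genes on the array, 12 were measured on both, 3 lay past 2-fold towards array B and 2 towards array A, with a median of −0.56. The erythropoietin receptor Epor differed by −2.06, Bpgm, which makes bisphosphoglycerate, by −1.35, and Isg20 by −1.15 (−0.86 with median scaling), while Btg2 differed by 2.46 and the glucose transporter Slc2a1 by 1.19. Car1, carbonic anhydrase 1, was well above background on array B only, at least 2.12-fold higher, but under 2-fold with median scaling (log2 −0.79), quantile scaling (−0.80), normexp (−0.69) and no filter (−0.62). The erythroid genes Trim10 and Car2 were detected on neither array. On both arrays, then, Klf1, Gata1 and Epor were well above background and Alas2, Slc4a1, Sptb, Trim10 and Ahsp were not. These genes do not stand for their lists. Hemgn, Rhd, Epb42, Ermap, Rhag, Ank1, Dmtn, Gypc and Tspo2 were measured too, each under 2-fold apart. Only 5 of 19 membrane and skeleton genes, and 4 of 18 other red cell genes, were detected on neither array.

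Of 12 genes of heme breakdown and haemoglobin scavenging, 9 were measured on both arrays and Slc48a1, a heme transporter, differed by −1.62, with a list median of −0.07. Of 14 general folding chaperones, 13 were measured, 2 lay past 2-fold towards array A (Hspa9 at 1.11 and Ppid at 1.06) and 0 towards array B, with a median of 0.11. Ppid was under 2-fold when scaled over the probes both arrays detected (0.98), with quantile scaling (0.99) and at its brightest probe (0.82). Each of these lists reads against 7.3% and 3.85% of all measured genes past 2-fold towards array B and array A.

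**Figure D3:**
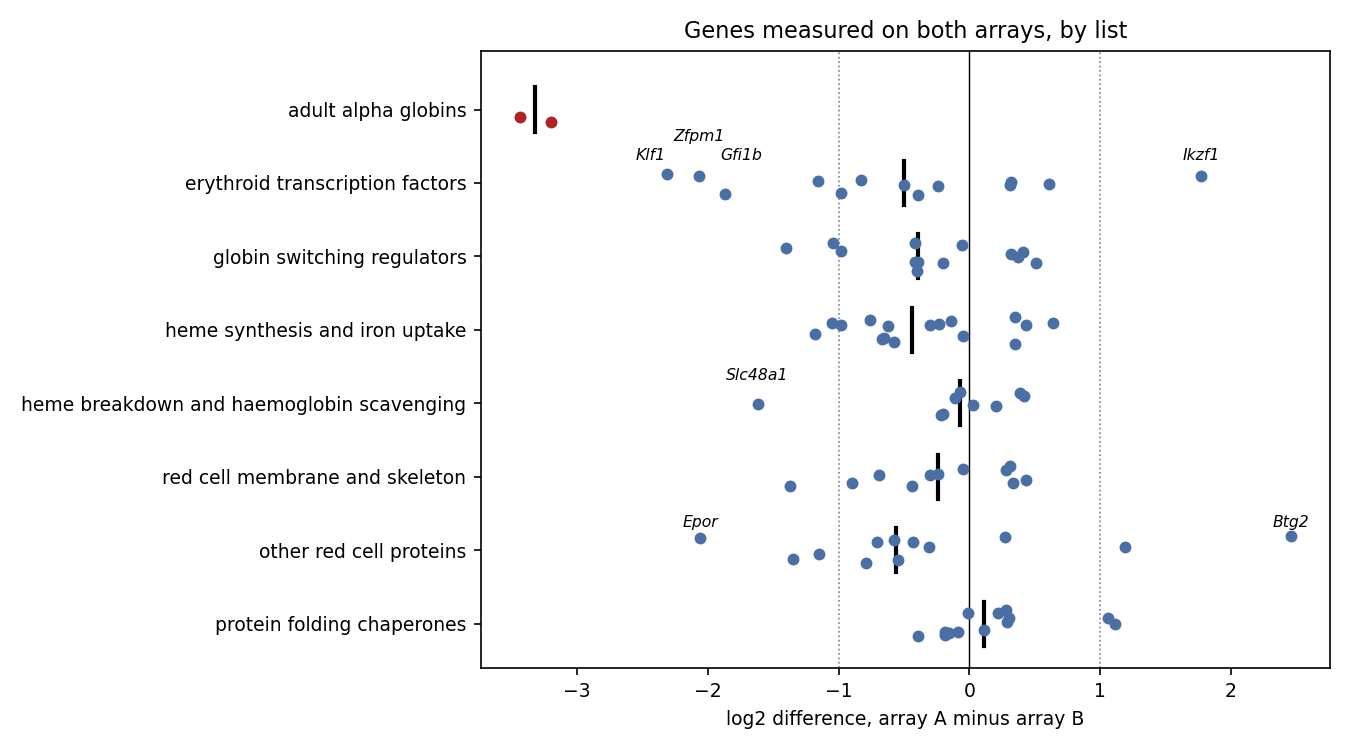
Log2 difference (array A less array B) of the genes measured on both arrays, by list, with the list median as a black bar, the adult alpha globins in red and dotted lines at 2-fold. The adult alpha globins lie at −3.20 and −3.44, beyond the other genes plotted, of which the furthest towards array B is Klf1 at −2.31. Cell type markers are not plotted.

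Ba/F3 is generally known as a pro-B cell line, but few markers of that lineage were measured. Of 11 B-lineage markers on the array, Cd79b and Vpreb1 were measured on both arrays and 9 detected on neither, among them Ebf1, Pax5 and Rag1. Summed over the list, the scaled signal was 0.39 on array A, against 1.56 on array B, with Cd79b at −2.30 and Vpreb1 at −1.39 (−0.94 with normexp). Markers of other blood cells also differed beside the alpha globins. Of 10 mast cell and basophil markers, 5 were measured on both arrays, of which 3 lay past 2-fold towards array B (Cpa3 at −5.44, Cma1 at −2.95 and Gata2) and 1 towards array A (Hdc at 1.67), while Kit was detected on neither. The summed scaled signal of 10 mast cell and basophil markers was 14.4 on array A, against 37.3 on array B. Gata2, also counted among the globin switching regulators, made up most of that sum on both arrays. The sum of 10 megakaryocyte and platelet markers was 2.43 on array A, against 7.08 on array B, most of it from Itga2b on both arrays. Of the megakaryocyte and platelet markers, 4 were measured on both arrays, of which 3 lay past 2-fold towards array B (1 with median scaling, 2 with quantile scaling or normexp, and 6 with no filter), and Ppbp and Gp1ba were detected on array B only. For 12 neutrophil markers the summed signal was 47.9 on array A, against 36.9 on array B, although 7 of the 9 measured lay past 2-fold towards array B. Lcn2, which made up most of that sum on array A, differed by 1.85 towards array A, while S100a9 differed by −5.90, Mmp8 by −4.99 and Ngp by −4.07. For 10 macrophage markers it was 5.96 on array A, against 6.55 on array B, with 1 of 4 measured past 2-fold towards array B (0 with median scaling or normexp). For 8 markers of liver and yolk sac epithelium it was 37.0 on array A, against 28.7 on array B, with Afp alone measured on both and under 2-fold. The part of these other lineages in the globin values was not tested.

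Both alpha globin differences kept their direction and stayed past 4-fold under other ways of processing. Over 9 alternatives Hba-a1 lay between −3.28 and −2.89 and Hba-a2 between −3.53 and −3.15. Hbb-b1 kept its direction but lay between 0.69 and 2.45, with the lowest under normexp.

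**Figure D4:**
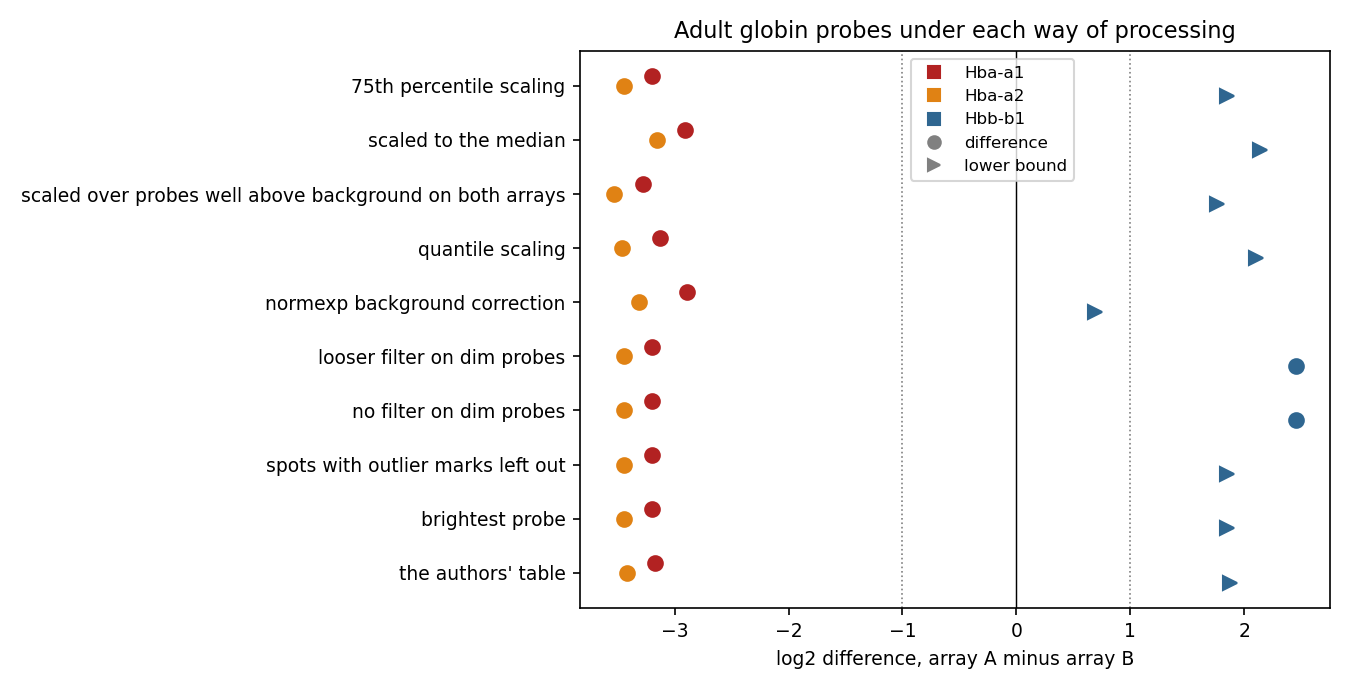
Log2 difference (array A less array B) of Hba-a1, Hba-a2 and Hbb-b1 under the 75th percentile scaling and each alternative, with circles for differences and triangles for lower bounds, and dotted lines at 2-fold. The alpha probes stay at or beyond −2.89 in every case, and Hbb-b1 stays above 0 but is under 2-fold with normexp.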

How the data were processed

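The authors deposited the scanner output of 2 Agilent 1-colour arrays, with an intensity per spot from Agilent Feature Extraction 9.5.1.1 after background subtraction, and a log2 table, made by the authors by raising signals under 1.0 to 1.0 and dividing each array by its 75th percentile. The table was set against the scanner intensity of 39429 probes, which showed that it holds the arrays under opposite cell lines. Its column medians were −5.45 (BaF/3 (#BEB1)) and −5.21 (parental Ba/F3). The same steps were applied here to 43020 non-control spots, where 49.4% of probes on array A, against 49.9% on array B, stood well above background and 0 spots were saturated. Over 211 replicated probes the median spot SD was 0.06 (array A) and 0.05 (array B) in log2 units. The number of arrays limits the precision. A gene's difference is the mean over its probes well above background on both arrays. With 1 array only, a bound used the other array's detection limit (its lowest signal marked well above background), or the signal of the dim probe if that was higher.

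Members and lists were chosen with earlier results of these data known. The lists are other globin family genes, erythroid transcription factors, globin switching regulators, heme synthesis and iron uptake, heme breakdown and haemoglobin scavenging, red cell membrane and skeleton, other red cell proteins, folding chaperones, alpha-globin locus neighbours (4 of 7 measured, 0 past 2-fold, median −0.21) and markers of 6 other cell types. The naming rule took all members, other globin genes, genes within 100 kb, and in each list up to 4 genes per direction at least 2-fold apart and up to 2 bounds; others are named to show a role or a low signal and were chosen after their values were seen. Several genes covered by this rule, among them undetected globin genes and neighbours, are given only in counts or left out. Probes were named through RefSeq of GRCm38.p6, 26047 through accessions, 3195 through current symbols and 930 through older ones, while 9248 kept the name given by the scanner output. The steps were run on a simulated array pair of 31709 genes, of which 200 were changed by 4-fold or more and 79 of those were measured. In it, 79 of 79 measured changed genes were past 2-fold in the true direction and 0 of 15626 unchanged genes were. The noise was set near the spot SD, so this outcome follows from the settings and checks the calculation only. Differences between arrays or cultures were not simulated. Alternatives were other scalings, normexp (offset 50), dim probes filtered less strictly or not at all, spots with outlier marks left out, the brightest probe, the authors' table and a 4-fold threshold. Python 3.11.15, numpy 2.4.6, pandas 2.3.3, matplotlib 3.10.9, R 4.3.3 and limma 3.58.1 were used.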

Additional observations from a re-analysis of the deposited data

How the results depend on the processing

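The median of the adult globins measured on both arrays was −3.32, and −3.03 with median scaling, −3.40 when scaled over the probes that both arrays detected, −3.10 with normexp, −3.20 with the looser filter and −2.25 with no filter, since dim beta globins enter under both filters. Members past 2-fold towards array A numbered 1, against 0 with normexp, 2 with the looser filter and 0 at 4-fold. Members higher on array B numbered 2 under every alternative except the looser filter and no filter, which gave 3 by adding Hbb-b2. Over all genes, 570 lay past 2-fold towards array A and 1082 towards array B. These were 1313 and 587 with median scaling, which shifts every difference by 0.29 and takes the share of calls higher on array B to 30.9%, against 65.5%. They were 949 and 1902 with the looser filter, 1491 and 2777 with no filter, and 84 and 149 at 4-fold, and 707 were higher on array B with normexp. No direction of a member or named gene that passed 2-fold reversed. No paired analysis was possible because there was 1 array per cell line. Signal near background limits Hbb-b1, Hbb-b2, Ahsp and the embryonic globins.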
